A study of Mus musculus with 4 samples.

Results

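The genes described here make, break down, carry and sense retinoic acid, the vitamin A derivative that acts as a signal along the embryonic axis. They are the 9 genes Cyp26a1, Dhrs3, Aldh1a2, Rdh10, Stra6, Crabp2, Crabp1, Rarb and Rarg, found by name among the 27573 gene names of the array, on 15 probes of which 14 could be tested. The tissue was the posterior part of mouse embryos at 5 to 6 somites, cut at the boundary of the last somite and pooled from 10 embryos of each genotype. One genotype was the compound mutant Cdx2+/-Cdx4-/-, which carries 1 functional Cdx2 allele and no functional Cdx4, and the other was wildtype. Each of 4 dual colour Agilent whole mouse genome arrays received the RNA of both genotypes, and the arrays are labelled as 2 replicates with a dye swap each.

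Retinoic acid is made from retinol in steps. Stra6 lets retinol into cells, Rdh10 oxidises it to retinaldehyde, Dhrs3 works in the reverse direction, and Aldh1a2 oxidises retinaldehyde to retinoic acid. Crabp1 and Crabp2 bind retinoic acid inside the cell, Rarb and Rarg are nuclear receptors that it activates, and Cyp26a1 is a cytochrome P450 that degrades it. In the mouse embryo at these stages the somites are the main site of synthesis, and Cyp26a1 clears retinoic acid from the tail end of the axis, where its loss is known to truncate the body.

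The direction of the ratios is not settled by the labels. The array labelled replicate 1 is called array 1 here, its dye swap array 2, the array labelled replicate 2 array 3 and its dye swap array 4. Cdx4, the gene deleted in the mutant, gave a Cy5 over Cy3 ratio, in log2, of -2.59 on array 1, -2.11 on array 2, 2.82 on array 3 and 2.42 on array 4, so by the labels it was lower in the mutant on arrays 1 and 4 and higher in the mutant on arrays 2 and 3. Arrays that carry the same dyes by their labels correlated at r = -0.43 in both cases over 21815 probes, and arrays 1 and 2, labelled as a dye swap, at 0.82. These correlations are across probes, which are not independent replicates. Each array was therefore turned so that its Cdx4 ratio is negative, and the 2 RNAs are called Cdx4-low and Cdx4-high. The Cdx4-low RNA is labelled mutant on arrays 1 and 4 and wildtype on arrays 2 and 3. It is in Cy5 on arrays 1 and 2 and in Cy3 on arrays 3 and 4. Each labelled replicate therefore holds 1 dye orientation, and a gap between the labelled replicates cannot be told apart from a dye effect. Every aligned ratio below is Cdx4-low over Cdx4-high, on the log2 scale, and by the labels of arrays 2 and 3 every sign turns. The share of gene spots that cleared the background was 50.6% to 56.4% for Cy3 and 58.9% to 64.9% for Cy5. The RNA came from whole tissue, in which fewer cells of a type and less RNA per cell cannot be told apart.

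Of the 9 retinoic acid genes, 3 were higher in the Cdx4-low RNA, 1 was lower and 5 did not pass, which reads as 1 higher and 3 lower by the labels of arrays 2 and 3. limma was fitted to the 2 labelled replicates, and a call needed a p of at most 0.05 after Benjamini-Hochberg adjustment across the 21874 probes tested. Over all 14887 genes tested, 2.91% were called higher and 3.89% lower. The median log2 ratio of the 9 was 0.17, against 0.015 over all genes. A second fit paired the arrays as an exchange of labels between arrays would require (1 with 3, and 2 with 4). It called 6 of the 9 higher and 1 lower, where 21.6% of all genes were called higher and 18.7% lower. A gene is said to have risen or fallen below only where it passed in both fits.

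**Figure D1:**
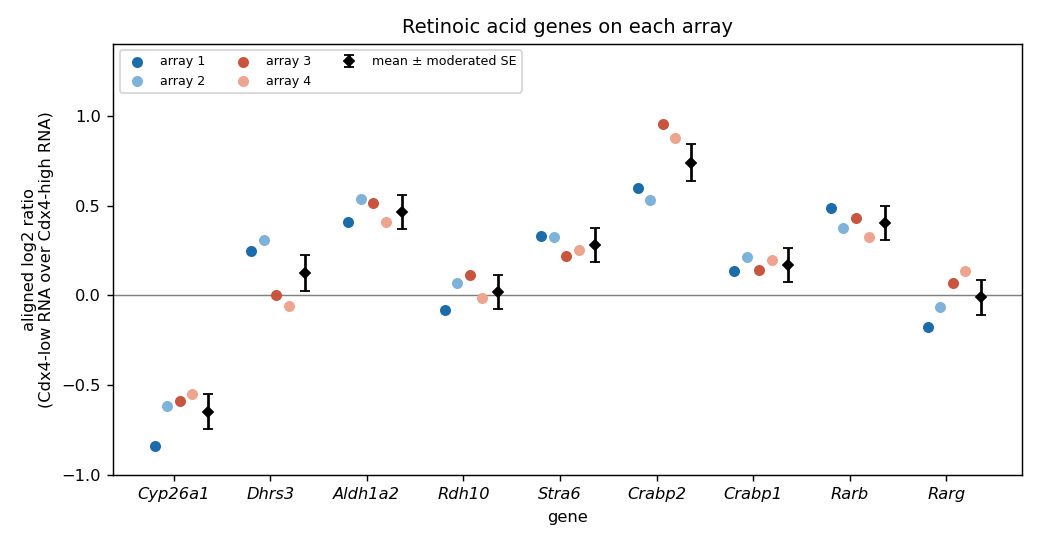
Aligned log2 ratios (Cdx4-low RNA over Cdx4-high RNA, vertical axis) of the brightest probe of each of the 9 genes, ordered by role, with a dot for each array and a diamond for the mean with its moderated SE. Cyp26a1 lay between -0.84 and -0.55, Crabp2 between 0.53 and 0.95, and Rarg on both sides of 0.

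The enzyme that degrades retinoic acid was the member that fell. Cyp26a1 (chromosome 19, probe at 37766220 to 37766279, mm8) had aligned log2 ratios of -0.84, -0.61, -0.59 and -0.55 on arrays 1 to 4. Its normalised log2 signal was 11.24 to 11.54 in the Cdx4-low RNA and 12.07 to 12.10 in the Cdx4-high RNA, so the RNAs did not overlap. The share of all genes without overlap is not given here, so for this and the genes below it is only a description. The Cdx4-high values were nearly level across arrays, and array 1 had the lowest Cdx4-low value. Cyp26a1 was 1.57-fold lower in the Cdx4-low RNA (log2 -0.65 ± 0.10, moderated SE, n = 2, adjusted p = 0.000396). As labelled, its ratios were -0.84, 0.61, 0.59 and -0.55, which cancel to -0.046.

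Dhrs3, the reductase that returns retinaldehyde to retinol, did not pass. Its brighter probe (chromosome 4, 144194134 to 144194193, mm8) had aligned ratios of 0.25, 0.31, 0.0019 and -0.059, and its other probe 0.23, 0.15, -0.096 and 0.010. On both probes arrays 1 and 2 were above arrays 3 and 4, so that the labelled replicates disagreed (0.28 in replicate 1 and -0.03 in replicate 2 on the brighter probe). That gap is also a gap between dye orientations. The mean was 0.12 ± 0.10 (adjusted p = 0.610). In the exchange pairing the brighter probe passed (adjusted p = 0.0445) and the other probe did not (adjusted p = 0.273).

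On the side of synthesis, Aldh1a2 rose and Rdh10 did not pass. Aldh1a2 (chromosome 9, 71094684 to 71094743, mm8), the enzyme of the last step, had aligned ratios of 0.41, 0.54, 0.51 and 0.41. Its log2 signal was 11.74 to 11.98 in the Cdx4-low RNA and 11.33 to 11.46 in the Cdx4-high RNA, without overlap. It was 1.38-fold higher in the Cdx4-low RNA (log2 0.47 ± 0.09, adjusted p = 0.00548), and its replicate values were 0.47 and 0.46. Rdh10, the retinol dehydrogenase (chromosome 1, 16117195 to 16117254, mm8), had ratios of -0.084, 0.069, 0.11 and -0.017, on both sides of 0, with a mean of 0.020 ± 0.09 (adjusted p = 0.965). Its second probe averaged 0.032 (adjusted p = 0.930). Aldh1a2 minus Cyp26a1, the gap between the ratios of the last step of synthesis and of breakdown, was 1.24, 1.15, 1.10 and 0.96 on arrays 1 to 4 (mean 1.11 ± 0.12, SD over 4 arrays), a description with no test.

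Stra6, the membrane receptor for retinol uptake (chromosome 9, 57950709 to 57951320, mm8), had aligned ratios of 0.33, 0.32, 0.22 and 0.25. The RNAs overlapped in signal, at 8.92 to 9.51 in the Cdx4-low RNA and 8.67 to 9.19 in the Cdx4-high RNA, because arrays differed more from each other than the RNAs did within an array. Stra6 averaged 0.28 ± 0.10 and did not pass (adjusted p = 0.0993), but it passed in the exchange pairing (adjusted p = 6.84e-07).

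**Figure D2:**
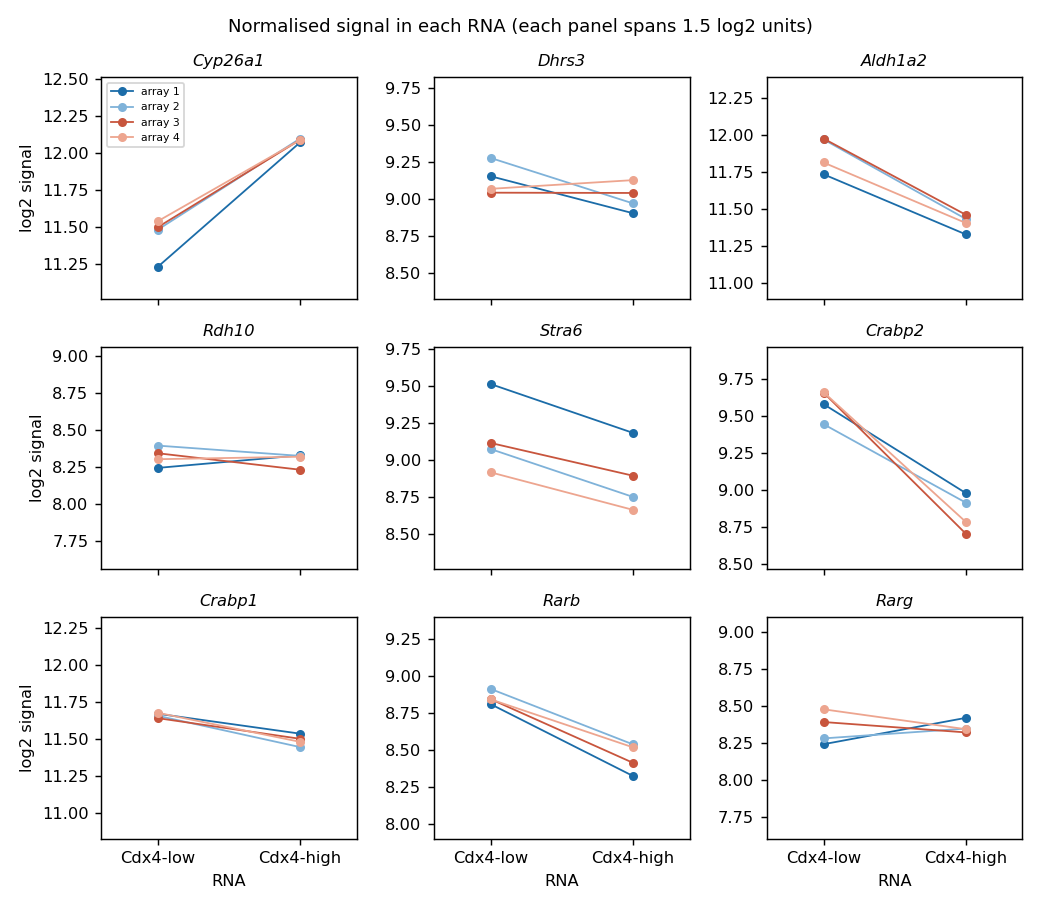
Normalised log2 signal of each gene in the Cdx4-low RNA and the Cdx4-high RNA (horizontal axis), with a line for each of the 4 arrays and a panel for each gene, every panel spanning the same range. The lines of Cyp26a1 run one way and those of Aldh1a2, Crabp2 and Rarb the other, while those of Stra6 are parallel at different heights. Signals of different probes are not comparable.

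Of the binding proteins, Crabp2 rose and Crabp1 did not pass. Crabp2 (chromosome 3, 88034687 to 88034746, mm8), which carries retinoic acid to its receptors in the nucleus, had aligned ratios of 0.60, 0.53, 0.95 and 0.88, higher on arrays 3 and 4 than on arrays 1 and 2. Its log2 signal was 9.44 to 9.66 in the Cdx4-low RNA and 8.71 to 8.98 in the Cdx4-high RNA, without overlap. It was 1.67-fold higher in the Cdx4-low RNA (log2 0.74 ± 0.10, adjusted p = 0.000210), with replicate values of 0.56 and 0.91. Crabp1 (chromosome 9, 54566522 to 54566581, mm8), its paralogue, had ratios of 0.13, 0.21, 0.14 and 0.20. Its signal did not overlap between the RNAs either, at 11.64 to 11.68 in the Cdx4-low RNA and 11.44 to 11.53 in the Cdx4-high RNA. At 0.17 ± 0.09 it did not pass (adjusted p = 0.382), though it did in the exchange pairing (adjusted p = 0.00433). Crabp2 minus Crabp1 was 0.47, 0.32, 0.81 and 0.68 on arrays 1 to 4, a difference that was not tested.

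Of the receptors, Rarb rose and Rarg showed no call. The main probe of Rarb (chromosome 14, 15224264 to 15224323, mm8) is printed in 10 spots on every array, 9 of which were used on arrays 2 and 4 after an outlier spot was left out. Its aligned ratios averaged 0.48, 0.37, 0.43 and 0.32, with an SD over spots of 0.083, 0.058, 0.088 and 0.19. The lowest single spot lay above 0 on arrays 1, 2 and 3 (0.31, 0.30 and 0.31) and was -0.16 on array 4. Its log2 signal was 8.81 to 8.91 in the Cdx4-low RNA and 8.32 to 8.54 in the Cdx4-high RNA. Rarb was 1.32-fold higher in the Cdx4-low RNA (log2 0.40 ± 0.09, adjusted p = 0.0148). The spots of a probe share their RNA and are not replicates. A second Rarb probe (chromosome 14, 15341785 to 15368493, mm8), was well above background in 1 array of each RNA and was not tested. With the scanner's processed signals the ratio of Rarb was 0.71, above 1.5 times the value here, and its call ended with arrays 1 and 4 alone (0.40, adjusted p = 0.0578) and with arrays 2 and 3 alone (0.40, adjusted p = 0.0658).

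Rarg (chromosome 15, brightest probe at 102063912 to 102063971, mm8) had aligned ratios of -0.18, -0.066, 0.070 and 0.13, with the labelled replicates on opposite sides of 0 (-0.12 and 0.10). Its 4 probes averaged between -0.025 and 0.020, and their adjusted p-values ran from 0.950 to 0.990. The probes starting at 102070014 and 102070108 passed the filter only through the Cdx4-high RNA. In the Cdx4-low RNA they were well above background on 3 and 2 arrays, so background limits their ratios. Rarb minus Rarg was 0.66, 0.44, 0.36 and 0.19 on arrays 1 to 4.

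Promoter sequence was examined because Cyp26a1 and Rarb, textbook targets of retinoic acid receptors, changed in opposite directions. RefSeq promoters (GRCm38.p6, 250 bases before to 50 after a start) were found for 7 of the 9 genes, in 13 windows. None was available for Crabp2 and Rdh10, so these genes were not searched. Direct repeats of the receptor hexamer (AGGTCA or its variants, AGTTCA and GGGTCA and GGTTCA) spaced by 5, 2 or 1 bases, named DR5, DR2 and DR1, were searched on both strands. Only Cyp26a1 and Rarb held one among the 13 windows, a DR5 in both. DR5 was found in 32 of 32851 promoters of this length (0.0974%), DR2 in 0.268% and DR1 in 0.222%. The repeat with its spacer is in capitals in the promoters of Cyp26a1 (chr19:37697558-37697857, plus strand, repeat on the opposite strand) and Rarb (chr14:16575427-16575726, minus strand, repeat on the same strand), both 5′ to 3′.
Cyp26a1: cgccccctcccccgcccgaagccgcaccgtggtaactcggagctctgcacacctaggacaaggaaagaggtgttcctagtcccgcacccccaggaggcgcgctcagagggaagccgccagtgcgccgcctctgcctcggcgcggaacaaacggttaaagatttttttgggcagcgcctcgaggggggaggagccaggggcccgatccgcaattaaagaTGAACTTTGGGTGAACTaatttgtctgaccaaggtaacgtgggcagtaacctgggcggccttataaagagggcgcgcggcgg
Rarb: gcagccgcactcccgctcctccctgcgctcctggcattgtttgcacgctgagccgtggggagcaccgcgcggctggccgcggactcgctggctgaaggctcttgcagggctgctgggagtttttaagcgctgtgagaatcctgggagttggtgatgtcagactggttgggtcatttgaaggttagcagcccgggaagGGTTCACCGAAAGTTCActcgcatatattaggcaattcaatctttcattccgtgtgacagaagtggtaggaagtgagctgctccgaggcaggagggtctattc

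The repeat lay at -32 to -16 from the annotated start of Cyp26a1 and at -53 to -37 from that of Rarb. Promoters with a DR5 belonged to 31 genes, of which 5 were tested. These were Cyp26a1 (-0.65), Rarb (0.40), the biliverdin reductase gene Blvrb (0.35), the embryonic globin gene Hbb-y (0.72) and Cfap45 (0.27, adjusted p = 0.136), so that 3 were called higher and 1 lower, where 2.91% and 3.89% of all genes were. Cyp26a1 and Rarb prompted the search, so their calls say nothing about the repeat. Of the tested genes with a DR2, 1 of 10 was called higher and 0 lower, and of those with a DR1, 2 of 26 were higher and 1 lower. The Cdx core TTTAT, also searched on both strands, was in 40.0% of all promoters. It was in 4 of the 13 windows of members, 1 each of Cyp26a1, Dhrs3, Rarg and Stra6. A match is a sequence and not evidence of binding.

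Other genes of retinoid metabolism and signalling showed no common direction. Of 36 listed genes 24 were tested, and 1 was higher, 2 were lower and 21 did not pass, with a median of -0.018. Over all genes 2.91% were higher and 3.89% lower. In the exchange pairing 5 of the 24 were higher and 6 lower, where 21.6% and 18.7% of all genes were. Rxrg, a retinoid X receptor that pairs with retinoic acid receptors, rose (log2 0.40 ± 0.10, adjusted p = 0.0223). Its aligned ratios were 0.21, 0.29, 0.59 and 0.52. Rbp4, the retinol carrier of plasma, fell (log2 -1.07 ± 0.10, adjusted p = 4.64e-06), with -1.18, -1.31, -0.99 and -0.79. Ttr, the transthyretin that binds Rbp4, fell as well (log2 -0.48 ± 0.10, adjusted p = 0.00911), with -0.36, -0.21, -0.80 and -0.54. Of the 11 genes with a probe that could not be tested, Cyp26b1 was well above background on up to 2 arrays in the Cdx4-low RNA and 3 in the Cdx4-high RNA, and Rara on up to 1 and 2.

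Rbp4 and Ttr are also markers of extraembryonic visceral endoderm, the outer layer of the yolk sac. Of the 17 markers of that tissue tested, 14 were lower and 0 higher, with a median of -0.70, led by the fetal serum protein gene Afp (-2.04) and the endocytic receptor gene Cubn (-1.12). Their summed signal was 43789 to 45491 units in the Cdx4-low RNA and 89311 to 101502 units in the Cdx4-high RNA. Rbp4 and Ttr are themselves among the 17 and in this sum. The part of this marker shift in the values of Rbp4, Ttr and Cyp26a1 was not tested.

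Of 20 listed targets of retinoic acid 19 were tested, and 5 were higher, 0 lower and 14 did not pass, with a median of 0.11. Over all genes 2.91% were higher and 3.89% lower. Calls in both directions came from the exchange pairing, with 9 higher and 3 lower, where 21.6% and 18.7% of all genes were. With the scanner's processed signals, 3 targets were higher and 1 lower, and of the other retinoid genes 0 higher and 3 lower. With those signals 504 of all 14887 genes were higher and 886 lower. Meis2 (0.43 ± 0.10, adjusted p = 0.0156), which encodes a Hox cofactor, the homeobox gene Hoxb1 (0.41 ± 0.10, adjusted p = 0.0216) and Cdx1 (0.40 ± 0.11, adjusted p = 0.0312) were among those that rose. On arrays 1 to 4 Hoxb1 was 0.20, 0.29, 0.62 and 0.54 and Meis2 was 0.60, 0.58, 0.27 and 0.27, so that the labelled replicates ranked them in opposite orders. Tlx2, named after its value was seen, was at 0.35 (adjusted p = 0.0348) on 3 arrays, since its spot on array 1 was left out. Cdx2, which is in no list here, was at -0.54 ± 0.10 (adjusted p = 0.00194). With arrays 1 and 4 alone 1 target was called, and with arrays 2 and 3 alone 3 were.

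**Figure D3:**
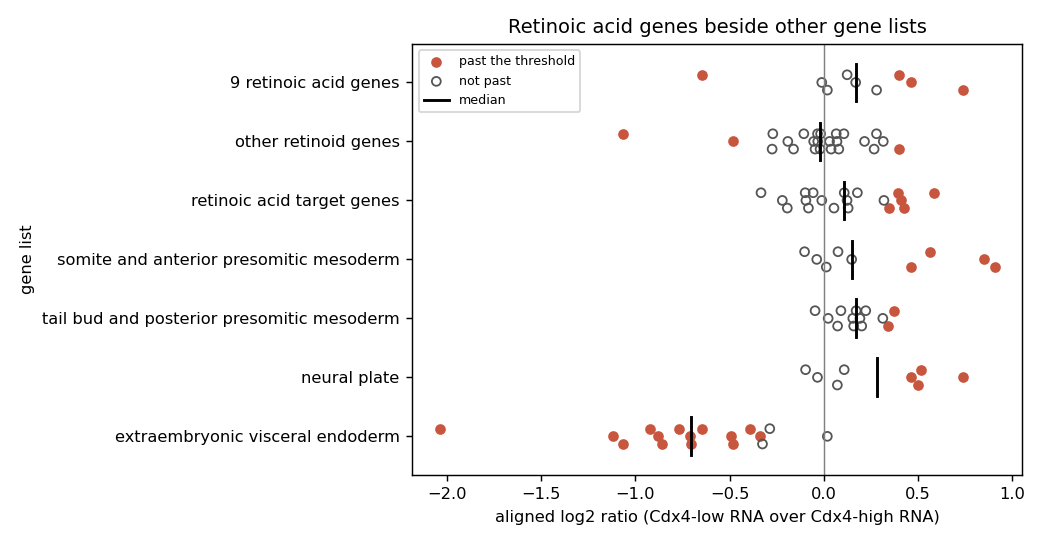
Aligned log2 ratios (horizontal axis) of every tested gene in 7 lists, with filled dots for genes past the threshold in the labelled-number fit, open dots for the others and a black bar at the list's median. The 9 retinoic acid genes spread to both sides of 0, and the visceral endoderm markers lie almost wholly below it.

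Cell types that make or clear retinoic acid were followed by their markers. Of 9 tested genes of the somite and anterior presomitic mesoderm, where Aldh1a2 is made, 4 were higher and 0 lower (median 0.15), led by the somite transcription factors Meox1 (0.91 ± 0.10, adjusted p = 1.52e-05) and Tcf15 (0.85 ± 0.10, adjusted p = 2.41e-05). The summed signal of the 9 was 5650 to 5897 units in the Cdx4-low RNA and 4244 to 4356 units in the Cdx4-high RNA. The somite markers Meox2, Pax1 and Tbx18 were among those that could not be tested, with Meox2 well above background on 1 array in the Cdx4-low RNA and 3 in the Cdx4-high RNA, and Tbx18 on none in either. Tail bud and posterior presomitic mesoderm, where Cyp26a1 is made, had 2 higher and 0 lower of 13 (median 0.17). Those were Fgf17 (0.37) and Wnt3a (0.34), ligands of the tail bud, and the summed signal was 38209 to 41726 units in the Cdx4-low RNA and 34810 to 35764 units in the Cdx4-high RNA. Of 8 neural plate genes, 4 were higher and 0 lower (median 0.29), among them the regulators Gbx2 (0.74) and Sox2 (0.52), with a summed signal of 9511 to 10301 units in the Cdx4-low RNA and 7729 to 8397 units in the Cdx4-high RNA. The part of these markers in the values of Cyp26a1, Aldh1a2, Crabp2 and Rarb was not tested. The tissue was cut at the boundary of the last somite, and how the place of the cut bears on the somite markers was not tested.

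Markers of the other tissues in the dissection moved as follows. In the endothelium 5 of 15 were lower and 0 higher (median -0.15), led by Kdr (-0.97) and Etv2 (-0.72), and in the primitive erythroid list 3 of 6 were higher and 0 lower (median 0.50), led by Hbb-bh1 (1.35) and Hba-x (1.12). In the gut endoderm 1 of 11 was higher, Krt18 (0.36), and in lateral plate and allantois 1 of 11 was lower, Vcam1 (-0.62). Over all genes 2.91% were higher and 3.89% lower. In the exchange pairing, where those shares were 21.6% and 18.7%, the calls were 5 higher and 0 lower for somite, 9 and 0 for tail bud, 4 and 0 for neural plate and 0 and 16 for visceral endoderm. They were 2 higher and 8 lower for endothelium, 4 and 1 for gut endoderm, 3 and 4 for lateral plate and 4 and 1 for the erythroid list.

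**Figure D4:**
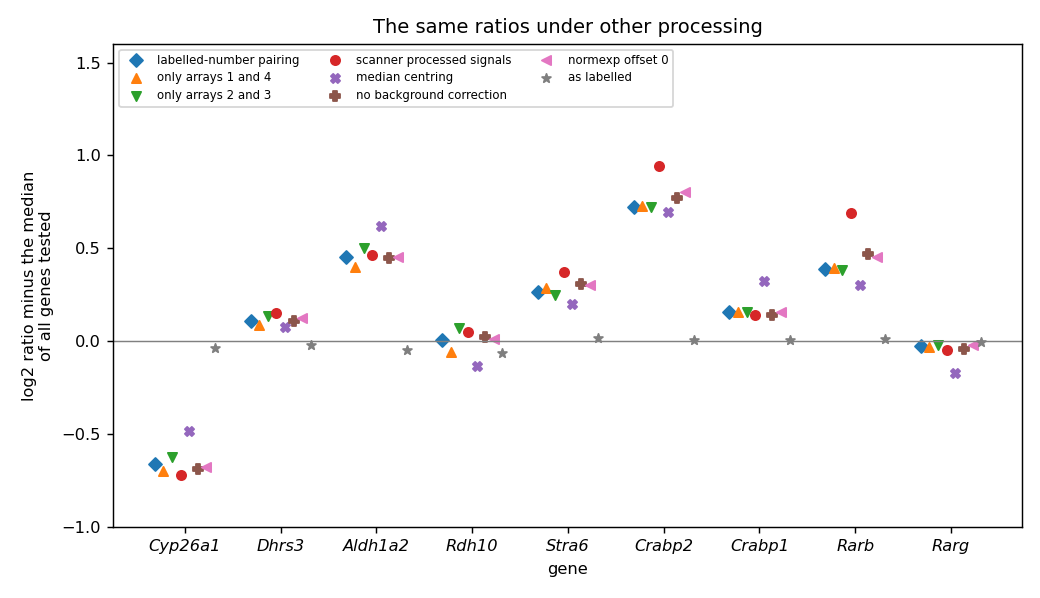
Log2 ratio of each gene minus the median of all genes tested (vertical axis) under the fit reported and 7 other settings, 1 symbol for each. Cyp26a1 stays below 0 and Aldh1a2, Crabp2 and Rarb above it in all but the ratios taken as labelled, where all 9 lie near 0.

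When arrays were centred on their medians instead of loess, the median over all genes moved to 0.28, and none of the 9 was called by limma (2 had an unadjusted p under 0.05). Relative to that median, Cyp26a1 was at -0.48, Aldh1a2 at 0.62, Crabp2 at 0.70, Rarb at 0.30 and Rarg at -0.17.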

How the data were processed

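Total RNA of posterior embryo tissue was hybridised in 2 colours to 4 arrays. Per the file headers, the deposited scanner files give an intensity for each spot as mean signal and median local background of Cy3 and Cy5, scanner-processed intensities, and a log10 ratio of Cy5 over Cy3. The submitters' processing notes name Agilent Feature Extraction, version 9.5.3, as the software. The deposited files also carry flags per spot, an other kind of value, as the file headers show. That log10 ratio is also what the authors' series table holds, equal within a tolerance of 1e-05 for 100% of features once the dye swaps are turned by their labels, with a median of 0 in every column.

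Intensities were corrected with normexp (offset 50) and loess in limma 3.58.1 (R 4.3.3), with control spots at weight 0. Control and outlier spots were left out and spots of a probe averaged. Signals of single channels were taken after loess and Aquantile scaling. The summed signal of a list adds them on the linear scale, so bright probes weigh most and a sum is no measure of tissue content. A probe was tested (21874 of 41174) if well above background on all 4 arrays in at least 1 RNA, and the brightest such probe stood for a gene. RefSeq accession (GRCm38.p6) named 23374 probes, a current symbol 6733 and an older one 2919, and 8148 are given as the file names them. Probe positions are those of the files, on mm8.

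Arrays were aligned by the sign of the Cdx4 ratio. Arrays 1 and 2 and arrays 3 and 4 were averaged by their labelled replicate number (the labelled-number fit) and fitted with lmFit and eBayes. Standard errors are moderated, with 17.1 prior and 1 residual degrees of freedom. The exchange pairing has an infinite prior, so all its genes share a standard error of 0.052, and its calls are too many if the labelled numbers are right. Whether the replicates are separate pools is not stated in the labels, and p-values cover only the spread between hybridisations, which may be technical. In the labelled-number fit that spread also holds any dye effect, while each pair of the exchange pairing holds both dye orientations. The number of arrays limits precision. The fit was tested on simulated data with independent arrays, the same spread for all probes and no dye effect. That simulation does not cover the dye and label structure of these arrays. Members, gene lists and tests were chosen with earlier results of these data known. Named genes are the 9 members, list genes past the threshold in both fits with 1 sign on all 4 arrays, the 2 largest called markers of each list, and Cdx4, Cdx2 and Cdx1 as the check of the labels. Genes named for a DR5 are all those tested with one. Some genes that meet this rule are not reported here.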

Additional observations from a re-analysis of the deposited data

Results flagged for a closer look

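Of 33 groups of 4 values examined among the members, 1 held an array far from the other 3, where chance marks about 1 in 20. The log2 signal of Rdh10 in the Cdx4-high RNA was 8.23 on array 3 against 8.32 to 8.33 on the other arrays.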

How the results depend on the processing

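Of 13 other settings, Cyp26a1, Aldh1a2 and Crabp2 were each called in 10 and Rarb in 8. Across those settings Cyp26a1 ranged from -0.70 to -0.046, Aldh1a2 from -0.059 to 0.90, Crabp2 from -0.0016 to 0.98 and Rarb from 0.0011 to 0.71. The scanner's processed signals and the authors' series table hold the same ratios but are counted as separate settings. Taken as labelled, the arrays cancelled, and limma called 0 of the 9 genes, 0 other retinoid genes and 0 targets, with 0, 1 and 2 at an unadjusted p under 0.05. Aldh1a2 (-0.0591) and Crabp2 (-0.0016) then changed sign. Median centring and no filter on dim probes also left 0, 0 and 0 calls, with 2, 1 and 4 and with 6, 11 and 10 at an unadjusted p under 0.05, and the cause was not tested. Without the filter the ratios of Cyp26a1 (-0.65), Aldh1a2 (0.47), Crabp2 (0.74) and Rarb (0.40) were as reported, with adjusted p-values of 0.0892 to 0.113. The exchange pairing called 7, 11 and 12, and the third pairing (1 with 4, and 2 with 3) called 7, 13 and 15, from smaller standard errors on the same ratios. With arrays 1 and 4 alone 1 target was called, and with arrays 2 and 3 alone 3. Over all genes, calls numbered 433 higher and 579 lower as reported, 3216 and 2788 in the exchange pairing, 4315 and 3606 in the third, 2 and 22 as labelled, 216 and 348 with arrays 1 and 4 alone, 231 and 244 with arrays 2 and 3 alone, 0 and 0 with median centring, and 10 and 4 without a filter. With 1 labelled replicate left out there is no test, and Dhrs3 (0.28 and -0.028), Rdh10 and Rarg then changed sign, while the other 6 genes did not. Both genotypes are on every array, so each ratio is itself a paired comparison within an array. Signals near background limit Rara, Cyp26b1, the second Rarb probe and the Rarg probes starting at 102070014 and 102070108.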
